A study of Schmidtea mediterranea with 36 samples.

Results

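A set of 91 transcripts of the planarian *Schmidtea mediterranea* had lower normalized counts after knockdown of *alx-3* at every time point of the series. They were chosen on the measured values themselves. A transcript was taken when its ID started with SmedASXL_ and was present at all 6 time points, when its mean in the control libraries was at least 20 at each of them, and when all 3 *alx-3(RNAi)* values lay below all 3 *control(RNAi)* values every time. *alx-3* (SmedASXL_006490) was left out. The rule allowed the top 100 by mean log2 difference, but fewer met it, so all 91 were kept. Of 71232 transcripts in the series, 70950 had such an ID, 52037 were present at all 6 time points and 21294 of these reached the control level, so the 91 are 0.427% of those that could have been chosen. Since the knockdown contrast chose them, its values are given for these transcripts as a description with no test.

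The *alx-3(RNAi)* animals were asexual CIW4 planarians fed *alx-3* dsRNA 9 times, and the *control(RNAi)* animals were of the same strain and were fed dsRNA of *GFP*, a gene the animals do not have, just as often. Tail fragments cut below the pharynx 4 days after the last feeding were collected at 0.5, 6, 24, 48 and 72 h post-amputation (HPA), and intact whole animals were collected beside them. Each group had 3 libraries at each time point, 36 in all. The labels do not say whether libraries of different time points came from separately fed animals, so the time points may share their feeding cohorts. RNA was taken from whole fragments or animals, so fewer cells of a type and less RNA per cell cannot be told apart.

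Planarians rebuild any missing part from neoblasts, the dividing stem cells of the adult. A cut switches on wound-induced genes within hours, and signals from muscle, which carries the positional information of the body, then decide which part is rebuilt. *alx-3* encodes a homeobox transcription factor of the aristaless family. None of the 91 IDs carries a gene name in the files, so no function is given for them and they are described by ID, level and pattern.

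Normalized counts summed to between 56450613 and 70937400 per *alx-3(RNAi)* library and to between 50851868 and 64869144 per *control(RNAi)* library. *alx-3* itself was lower after RNAi at each time point, at 40.8%, 39.2%, 23.7%, 27.8% and 29.0% of its control mean from 0.5 to 72 HPA and at 23.6% in intact animals (limma adjusted p from 6.84e-08 to 0.000148). In intact animals it had 158, 172 and 183 normalized counts in *alx-3(RNAi)* and 702, 775 and 696 in *control(RNAi)*, and the groups did not overlap at any time point. The 6 transcripts that their IDs name as posterior genes summed to 4984 to 13936 in the tail libraries, over both groups, and the 5 anterior ones to 515 to 3619, against 4063 to 5252 for the anterior ones in intact animals. Of the marker lists, the 8 neoblast transcripts had a summed level in *alx-3(RNAi)* of 0.953 to 1.15 times that in *control(RNAi)* over the 6 time points. The 7 epidermal progeny transcripts were at 1.13 to 1.35 times and the 3 pigment transcripts at 1.29 to 1.47 times, whereas the lists of pharynx and protonephridia had no named transcript. *COE*, the only neural marker named, was at 0.738 to 0.913 times, and limma called it lower at 24 HPA alone. *titin*, the only muscle marker named, was at 0.365 to 0.545 times in tails, where limma called it lower at 0.5, 6, 24 and 72 HPA. In intact animals *titin* was at 1.15 times, but its values overlapped. They ran from 9.75 to 150 in *alx-3(RNAi)* and from 32.9 to 79.7 in *control(RNAi)*. *NXK2.2_Dth-1* of the gut stood at 0.751 to 1.20 times and *FoxF1* of the parenchyma at 0.965 to 1.28 times. The anterior list was at 0.427 to 1.16 times and the posterior list at 0.953 to 1.70 times. The anterior ratio of 0.427 fell at 0.5 HPA, where limma called 0 of the 5. There the sums overlapped, at 515 to 1040 in *alx-3(RNAi)* and 549 to 2526 in *control(RNAi)*. At 72 HPA limma called 4 of the 5 anterior transcripts lower and 5 of the 6 posterior ones higher, and 0 in the other direction. Over all tested transcripts 2.62% were called lower and 10.5% higher at 72 HPA. All 7 epidermal progeny transcripts, all 3 pigment ones, *NXK2.2_Dth-1* and *FoxF1* were also called higher at 72 HPA. Of the 8 neoblast transcripts 2 were called higher and 1 lower. The part of these cell types in the results was not tested.

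By the rule, the groups did not overlap for any of the 91 transcripts. Among the 21294 transcripts with the same control level, all 3 *alx-3(RNAi)* values lay below all 3 *control(RNAi)* values for 9.08% at 0.5 HPA, 7.62% at 6 HPA, 15.3% at 24 HPA, 8.79% at 48 HPA, 10.6% at 72 HPA and 10.2% in intact animals. Non-overlap at all 6 time points in the other direction, higher in *alx-3(RNAi)*, was found for 663 transcripts. This balance depended on the scaling of the libraries. With each library brought to the same total, which lowered the median difference of all tested transcripts by a further 0.08 to 0.20 on the log2 scale, 445 transcripts were lower and 197 higher at all 6 time points. With quantile normalization 193 were lower and 432 higher. Totals were mostly larger in *alx-3(RNAi)*, so the same total moves its values further down, and that all 91 still lacked overlap there follows from the scaling. Under quantile normalization 87 of the 91 lacked overlap.

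The differences ranged widely in size and were similar over time. The mean over the 6 time points of the log2 difference, computed as log2(normalized count + 1), was 2 or more for 9 transcripts, 1 to 2 for 28, 0.5 to 1 for 20 and under 0.5 for 34. The median difference (*alx-3(RNAi)* minus *control(RNAi)*) of the 91 was −0.79 at 0.5 HPA, −0.67 at 6 HPA, −0.67 at 24 HPA, −0.68 at 48 HPA, −0.55 at 72 HPA and −0.64 in intact animals, whereas the median over all tested transcripts lay between 0.00 and 0.01. At each time point 35 to 38 of the 91 were at least 2-fold lower and 7 to 13 at least 4-fold lower. The 91 together made up 0.152% to 0.210% of the normalized counts of a library in *alx-3(RNAi)* and 0.296% to 0.418% in *control(RNAi)*. A transcript's 6 differences varied with a median SD of 0.14. The small differences included narrow gaps: at 6 HPA the lowest control value was less than 1.1 times the highest *alx-3(RNAi)* value for 32 of the 91 transcripts, and at 0.5 HPA for 15.

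**Figure D1:**
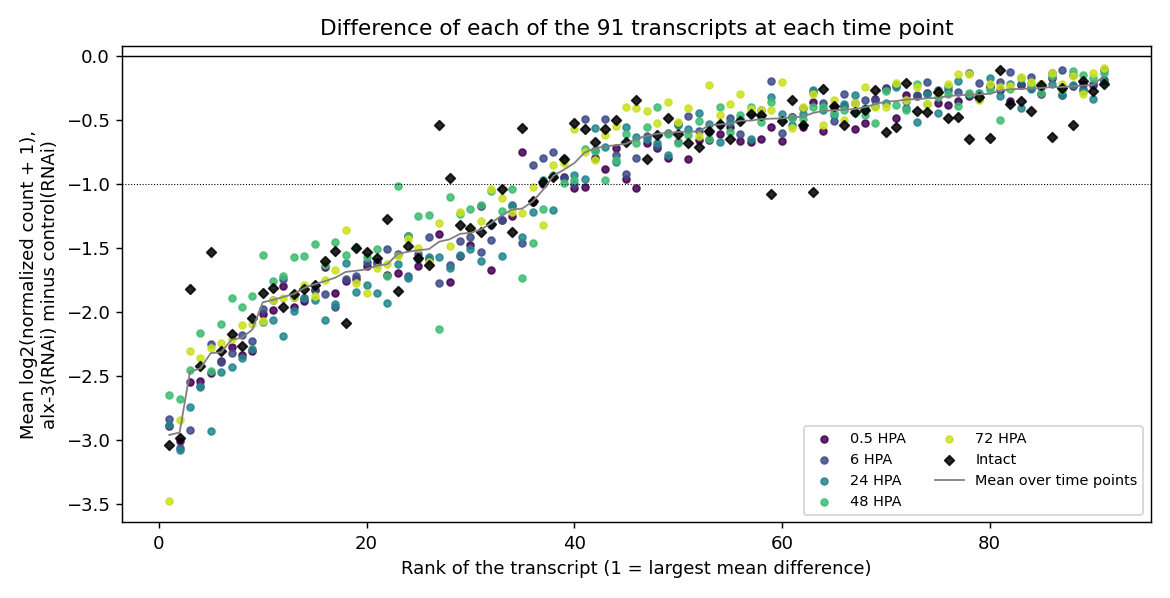
Log2 difference (*alx-3(RNAi)* minus *control(RNAi)*, mean of log2(normalized count + 1)) of each of the 91 transcripts at each time point, ordered by the mean over time points (grey line). Circles are tail fragments from 0.5 to 72 HPA, diamonds are intact animals, the dotted line marks a 2-fold lower level, and 37 transcripts have a mean beyond it.

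The time of the smallest and the largest difference varied among the 91. The smallest fell at 48 HPA for 29, at 72 HPA for 23, in intact animals for 18 and at 6 HPA for 15, and the largest at 24 HPA for 27, at 0.5 HPA for 23 and in intact animals for 22. The strongly reduced transcripts were less mixed. Of the 37 transcripts with a mean difference of at least 2-fold, 23 were closest to the controls at 48 HPA, 9 in intact animals, 3 at 72 HPA and 2 at 6 HPA. The largest difference fell at 24 HPA for 19 of these 37. Compared with *alx-3* itself, 30 of the 91 had a lower percentage of their control mean at 0.5 HPA and 33 at 6 HPA, but 12 at 24 HPA, 10 at 48 HPA, 15 at 72 HPA and 7 in intact animals. At all 6 time points, 6 transcripts stood at a smaller share of their control level than the targeted gene.

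SmedASXL_079289 had the second largest mean difference, 2.94 lower on the log2 scale, at high normalized counts. Its values at 0.5 HPA were 1150, 1109 and 1122 in *alx-3(RNAi)* and 10357, 8779 and 8103 in *control(RNAi)*. At 6 HPA they were 1356, 1393 and 944 in *alx-3(RNAi)* and 10044, 10601 and 9665 in *control(RNAi)*. The groups stood several-fold apart with no library between them. At 24 HPA the values were 1242, 1263 and 1131 in *alx-3(RNAi)* and 10008, 12666 and 8451 in *control(RNAi)*. They were 1992, 1753 and 1621 in *alx-3(RNAi)* against 11683, 11080 and 11347 in *control(RNAi)* at 48 HPA. All 3 *alx-3(RNAi)* values at 48 HPA exceeded every *alx-3(RNAi)* value of the earlier tails, although the tables of the time points were normalized separately. At 72 HPA the transcript had 1637, 1431 and 1529 in *alx-3(RNAi)* and 11081, 12328 and 9640 in *control(RNAi)*. Intact animals had 927, 652 and 721 in *alx-3(RNAi)* and 6643, 6910 and 4655 in *control(RNAi)*. Both groups were thus lowest in intact animals, and the level in *alx-3(RNAi)* was 11.7% to 15.7% of the control mean at all 6 time points.

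SmedASXL_006059 ranked first, with a mean log2 value 2.96 lower, but at low counts. Its *alx-3(RNAi)* means were 5.60 ± 0.0808 at 0.5 HPA, 8.88 ± 5.90 at 24 HPA and 3.03 ± 0.949 in intact animals, against *control(RNAi)* means of 48.1 ± 8.03, 62.0 ± 17.3 and 31.9 ± 6.39 (SD, n = 3 libraries each). All of its *alx-3(RNAi)* means lay under the level of 20 that the rule asked of controls. The same held for SmedASXL_017336, and SmedASXL_069381 and SmedASXL_007789 had an *alx-3(RNAi)* mean under 20 in at least 1 table. For these 4 transcripts the pass depended on the group in which they were high, and the pseudocount of 1 understates their log2 difference. All 91 passed the filter of the limma fits, a value of at least 10 in at least 3 libraries, at each time point. At 0.5, 6 and 72 HPA and in intact animals SmedASXL_006059 passed it through its control libraries alone. Its *alx-3(RNAi)* values there were all under 10.

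**Figure D2:**
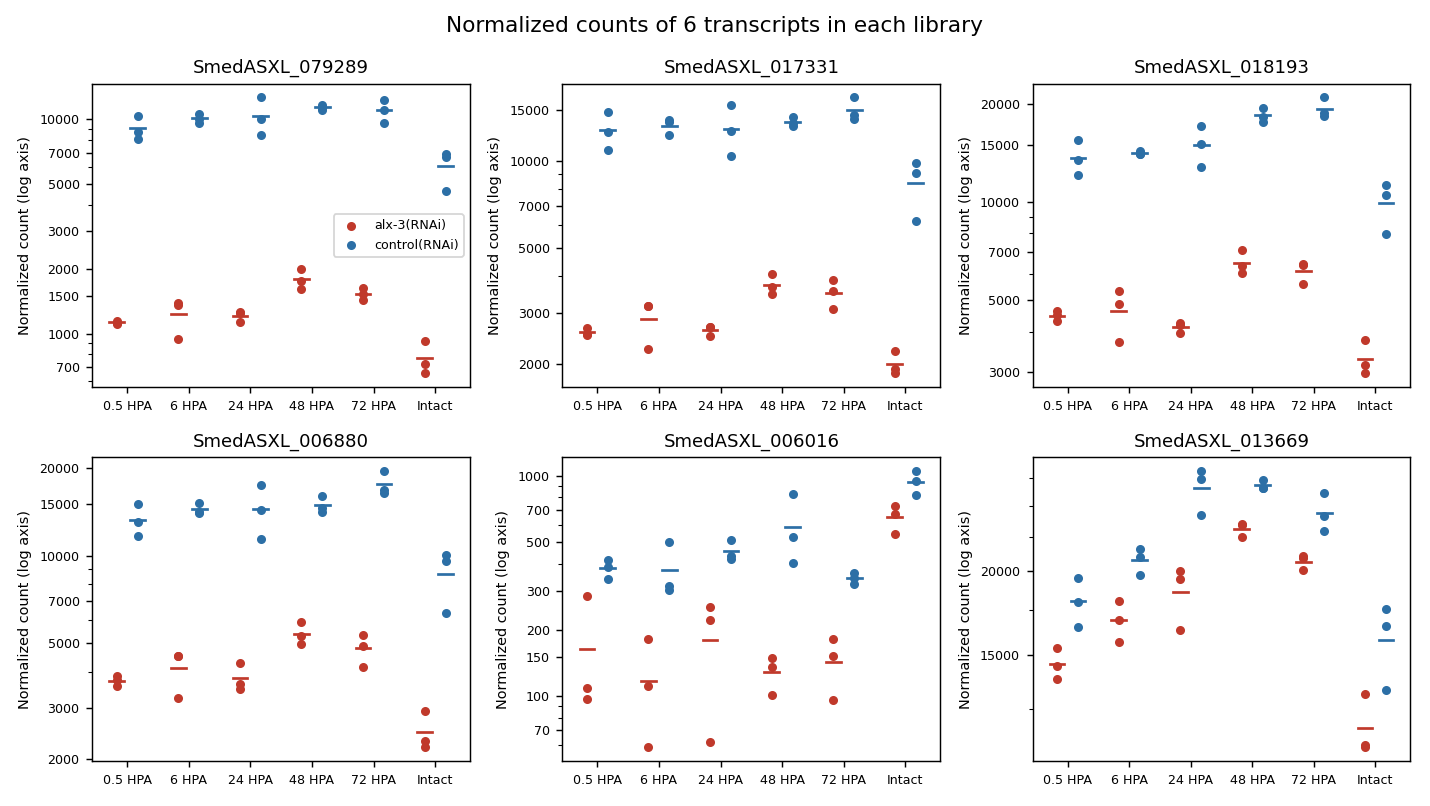
Normalized counts (log axes) of 6 of the 91 transcripts in each of the 36 libraries, with *alx-3(RNAi)* in red to the left of *control(RNAi)* in blue at each time point and the mean of 3 libraries as a bar. In SmedASXL_079289, SmedASXL_017331, SmedASXL_018193 and SmedASXL_006880 both groups are lowest in intact animals, in SmedASXL_006016 both are highest there, and SmedASXL_013669 shows a small gap.

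The 91 transcripts were not scattered evenly over the ID numbers. Of them, 27 fell in 8 runs whose neighbours lie at most 4 numbers apart, and 26 (28.6%) had the very next or previous number as another of the 91. Of the 134 different IDs directly next to one of the 91 that met the same control level, 26 (19.4%) were themselves among the 91, beside the share of 0.427% over all such transcripts. These runs were noticed after the values had been seen and are a description. What the order of the IDs stands for is not given in the sources used here. Transcripts of near-identical sequence could share reads in the counting, which was not tested since no sequence was used, so members of a run may not be separate genes.

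The first long run held 7 of the 9 IDs from SmedASXL_017329 to SmedASXL_017337. Summed over the 7, the normalized counts at 0.5 HPA were 5882, 5880 and 5994 in *alx-3(RNAi)* and 32312, 28148 and 25263 in *control(RNAi)*. In intact animals they were 5003, 4012 and 4110 in *alx-3(RNAi)* and 20395, 22181 and 14662 in *control(RNAi)*. Every *alx-3(RNAi)* sum was well below every control sum at both times. The sums in *alx-3(RNAi)* were 20.7% of the control mean at 0.5 HPA, 21.5% at 6 HPA, 20.2% at 24 HPA, 27.1% at 48 HPA, 23.5% at 72 HPA and 22.9% in intact animals. The strongest was SmedASXL_017336 (mean log2 value 2.46 lower), followed by SmedASXL_017332 (2.44), SmedASXL_017330 (2.31), SmedASXL_017329 (2.21) and SmedASXL_017331 (2.13). SmedASXL_017337 (1.68) and SmedASXL_017335 (1.51) were less reduced. The 2 IDs in between differed less: SmedASXL_017333 had a mean log2 difference of −0.11 and SmedASXL_017334 of −0.26. On the far side of the run, SmedASXL_017338 to SmedASXL_017340 had −0.18, 0.20 and 0.09. SmedASXL_017334 and SmedASXL_017338 were lower in *alx-3(RNAi)* without overlap at 4 of the 6 time points, and SmedASXL_017333 at 1.

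Within this run SmedASXL_017331 carried the highest normalized counts, which were not divided by transcript length. At 72 HPA it had 3886, 3091 and 3569 in *alx-3(RNAi)* and 14316, 16518 and 13919 in *control(RNAi)*. In intact animals it had 2211, 1852 and 1920 in *alx-3(RNAi)* and 9103, 9795 and 6199 in *control(RNAi)*. No library of one group came near the other at either of these times. In intact animals the lowest control value, 6199 in *control(RNAi)* replicate 3, still lay far above the highest *alx-3(RNAi)* value of 2211. SmedASXL_017332 had *alx-3(RNAi)* means of 607 ± 29.3 at 0.5 HPA and 895 ± 58.7 at 48 HPA, against *control(RNAi)* means of 3535 ± 438 and 3999.6 ± 59.3 (SD, n = 3 each).

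The second long run held all 7 IDs from SmedASXL_018193 to SmedASXL_018199. Their summed counts at 24 HPA were 8280, 8220 and 7855 in *alx-3(RNAi)* and 27861, 32364 and 23397 in *control(RNAi)*. In intact animals the sums were 7270, 5861 and 6073 in *alx-3(RNAi)* and 19469, 20995 and 14560 in *control(RNAi)*. The *alx-3(RNAi)* sums were 29.1% of the control mean at 24 HPA and 37.0% at 48 HPA, the lowest and the highest of the 6 time points. The 7 mean log2 values were 1.38 to 1.90 lower, with SmedASXL_018199 the most reduced. The 3 IDs on either side had mean differences between −0.22 and 0.18 on the log2 scale.

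**Figure D3:**
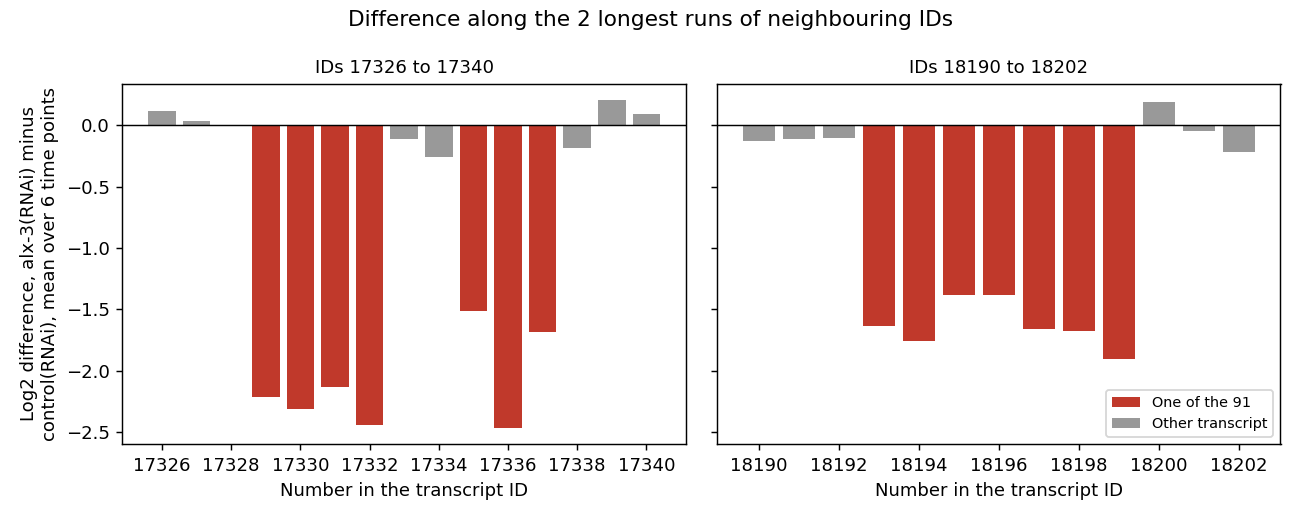
Mean over the 6 time points of the log2 difference (*alx-3(RNAi)* minus *control(RNAi)*) by the number in the transcript ID along both longest runs, with 7 transcripts of the 91 in each (red) and the other transcripts with such an ID in grey. All red bars lie at −1.38 or lower and the grey bars lie between −0.26 and 0.20. The gap at 17328 is an ID that the files give under a gene name.

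The other runs were shorter. SmedASXL_006880 and SmedASXL_006881 were 1.78 and 1.86 lower on the mean log2 scale, and SmedASXL_006884 was 0.50 lower, with the 2 IDs between them at 0.11 and 0.09. SmedASXL_006880 had 3868, 3566 and 3744 normalized counts in *alx-3(RNAi)* and 14995, 13066 and 11694 in *control(RNAi)* at 0.5 HPA. SmedASXL_066634 and SmedASXL_066635 were 1.81 and 1.73 lower. SmedASXL_076145 and SmedASXL_076146 were 1.24 and 1.35 lower, and SmedASXL_005087 and SmedASXL_005088 were 1.20 and 1.13 lower. The pairs SmedASXL_013423 with SmedASXL_013424 and SmedASXL_018274 with SmedASXL_018275 belonged to the smaller differences, from 0.33 to 0.68 lower.

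Among the 12 strongest transcripts, SmedASXL_069381, SmedASXL_019397, SmedASXL_003119 and SmedASXL_001348 stood outside the runs, as did SmedASXL_006059 and SmedASXL_079289, described above. SmedASXL_019397 had 163, 122 and 142 in *alx-3(RNAi)* and 797, 701 and 653 in *control(RNAi)* at 0.5 HPA, and 118, 92.6 and 93.1 against 494, 582 and 402 in intact animals. SmedASXL_003119 and SmedASXL_001348 had intermediate counts and kept 23.3% to 34.3% and 22.2% to 31.0% of the control mean. SmedASXL_069381 kept 12.7% of its control mean at 24 HPA but 33.4% in intact animals, where it had 24.4, 23.7 and 22.3 in *alx-3(RNAi)* and 61.4, 83.5 and 65.8 in *control(RNAi)*. It was among the 3 with the most variable difference (SD 0.46 over the 6 time points), with SmedASXL_007789 (0.45) and SmedASXL_006016 (0.54).

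Of the 37 transcripts with a mean difference of at least 2-fold, 2 had their highest control mean in intact animals, beside 22 of all 91. SmedASXL_006016, 1 of these 2, differed from most of the 37 in its course over time. At 48 HPA it had 150, 102 and 136 in *alx-3(RNAi)* and 401, 530 and 827 in *control(RNAi)*. In intact animals it had 730, 546 and 670 in *alx-3(RNAi)* and 1050, 946 and 818 in *control(RNAi)*. The groups stayed apart, but the level in *alx-3(RNAi)* was 22.0% of the control mean at 48 HPA and 69.1% in intact animals. At 0.5 HPA *alx-3(RNAi)* replicate 2 had 285, close to the lowest control value of 339, whereas the other 2 *alx-3(RNAi)* libraries had 96.6 and 109.

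The transcript with the highest normalized counts, SmedASXL_013669, had one of the smaller differences. It had 14581 ± 774 in *alx-3(RNAi)* and 18049 ± 1508 in *control(RNAi)* at 0.5 HPA, and 23120 ± 575 against 26822 ± 425 at 48 HPA (SD, n = 3 each). In intact animals the gap was narrow, since *alx-3(RNAi)* replicate 2 had 13140 and *control(RNAi)* replicate 3 had 13350. SmedASXL_018193, SmedASXL_006880, SmedASXL_017331 and SmedASXL_079289 followed in normalized count. The steadiest differences were small ones: SmedASXL_009494, SmedASXL_016481 and SmedASXL_015842 varied with an SD of 0.04 to 0.05 on the log2 scale. SmedASXL_009494 had 1018, 1111 and 1060 in *alx-3(RNAi)* and 1235, 1276 and 1403 in *control(RNAi)* at 0.5 HPA. SmedASXL_015842, the last in rank, kept 86.4% to 94.1% of its control mean. SmedASXL_014688 and SmedASXL_017156, named here after their values had been seen, were less steady and differed most in intact animals. They were at −1.08 and −1.06 on the log2 scale there, against −0.20 to −0.55 and −0.26 to −0.40 in tails. SmedASXL_014688 was among those that did not lack overlap throughout under quantile normalization.

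To measure the pattern in libraries that had not been used to choose transcripts, the rule was applied to 5 time points and read at the sixth. Where more than 100 met the rule, only the 100 with the largest mean difference were read. Without 6 HPA 150 transcripts met it and without intact animals 118, and all 91 were among both sets. Of the transcripts so ranked, all 3 *alx-3(RNAi)* values lay below all 3 *control(RNAi)* values at the time point left out for 91 of 100 at 0.5 HPA, 71 of 100 at 6 HPA, 91 of 95 at 24 HPA, 90 of 100 at 48 HPA, 88 of 100 at 72 HPA and 80 of 100 in intact animals, beside the shares of 7.62% to 15.3% given above. In limma fits of the time point left out, 68 of 100 were called lower at 0.5 HPA (Benjamini-Hochberg adjusted p under 0.05), where 0.794% of all tested transcripts were called lower. The counts were 56 of 100 at 6 HPA (0.621% of all tested transcripts), 84 of 95 at 24 HPA (3.01%), 60 of 100 at 48 HPA (1.11%), 74 of 100 at 72 HPA (2.62%) and 50 of 100 in intact animals (0.501%). Limma called 0 of the ranked transcripts higher at the time point left out, and 0 were higher at an unadjusted p under 0.05. Between 95 and 100 of them had a difference below 0. The median difference of the ranked transcripts was −0.69, −0.60, −0.64, −0.60 and −0.53 from 0.5 to 72 HPA and −0.68 in intact animals. The time points may share feeding cohorts, so the one left out is not an independent experiment. The ranked transcripts include members of the runs, which may share reads, so they cannot be counted as independent. Transcripts that passed the limma filter through control libraries alone were kept in these counts.

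**Figure D4:**
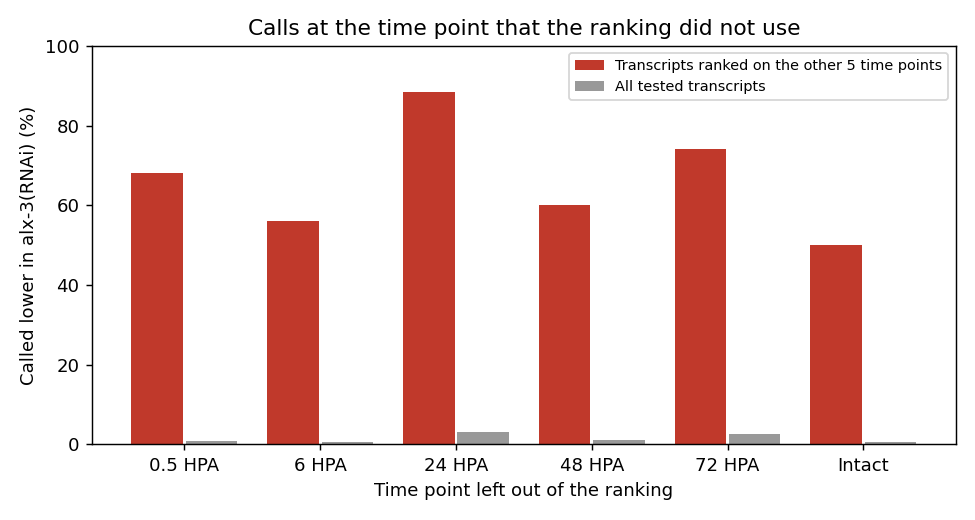
Percentage called lower in *alx-3(RNAi)* by limma at each time point among the transcripts ranked on the other 5 time points (red) and among all tested transcripts (grey). The red bars run from 50% in intact animals to 88.4% at 24 HPA and the grey bars from 0.501% to 3.01%.

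The count in intact animals depended on single libraries. It was 87 of 100 without *alx-3(RNAi)* replicate 2 and 32 without *control(RNAi)* replicate 2. Without that *alx-3(RNAi)* library 9.21% of all tested transcripts were called lower in intact animals. The share over all tested transcripts also moved with single libraries in the tails, up to 3.96% at 0.5 HPA without *control(RNAi)* replicate 1 and 6.49% at 72 HPA without *alx-3(RNAi)* replicate 2. Without the 6 HPA libraries, 150 transcripts met the rule on the remaining 5, and leaving out any other single time point left 95 to 118.

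The rule did not use the order of the control levels over time. Of the 37 transcripts with a mean difference of at least 2-fold, 31 had their lowest control mean in intact animals and 22 their highest at 72 HPA. Over all 91 these counts were 38 and 28, and among the 21294 transcripts with the same control level 3631 (17.1%) were lowest in intact controls and 3410 highest at 72 HPA. With every library brought to one total these were 4844 (22.7%) and 5482 (25.7%). The 3 control values in intact animals lay all below the 3 control values at 0.5 HPA for 25 of these 37 and for 27 of the 91, where 9.89% of the 21294 transcripts with the same control level did so. They lay all above for 1 of the 37 and for 24 of the 91, where 25.3% of all such transcripts did so. The median log2 ratio of control means, intact over 0.5 HPA, was −0.54 for the 37 and 0.09 over all such transcripts. These levels come from tables normalized separately, and the split at 2-fold was chosen after the values had been seen. The 37 include all 14 transcripts of the 2 longest runs. Members of a run may not be separate genes, so the 37 cannot be read as 37 independent transcripts. With every library brought to one total, 28 of the 37 were lower in intact controls and 1 was higher, beside 16.1% and 20.7% of all such transcripts.

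The same held within *alx-3(RNAi)*. There, 22 of the 37 lay lower in all 3 intact libraries than in all 3 libraries at 0.5 HPA, beside 10.3% of all such transcripts, with a median log2 ratio of −0.44. Of the other 54 transcripts, 3 were lower and 27 higher in intact *alx-3(RNAi)* animals, and 2 were lower and 23 higher in intact controls. All such transcripts also lay higher more often than lower, at 34.7% higher in *alx-3(RNAi)* and 25.3% in *control(RNAi)*, and the medians of 0.22 and 0.17 for the 54 compare with 0.11 and 0.09 over all of them. The lowest control ratios were those of SmedASXL_071909 (−0.69), SmedASXL_066635 (−0.68) and SmedASXL_079221 (−0.67). SmedASXL_066635 belongs to one of the short runs described above, and SmedASXL_071909 averaged 162 ± 7.56 in *control(RNAi)* tails at 0.5 HPA (SD, n = 3). The highest were those of SmedASXL_006016, described above, SmedASXL_004617 (0.83) and SmedASXL_017876 (0.76).

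**Figure D5:**
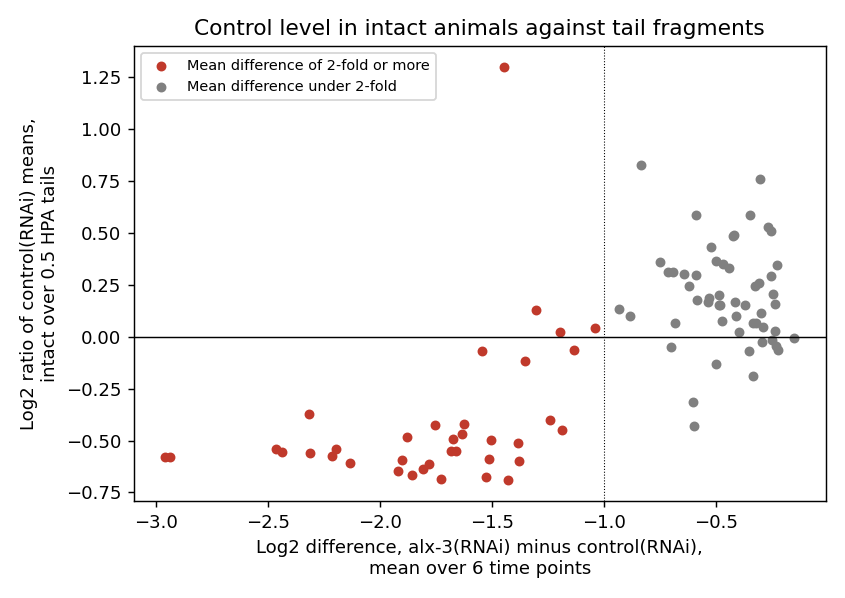
Log2 ratio of the control means, intact animals over tails at 0.5 HPA, against the mean log2 difference (*alx-3(RNAi)* minus *control(RNAi)*) of each of the 91 transcripts. The 37 transcripts to the left of the dotted 2-fold line have a median of −0.54, with SmedASXL_006016 the only one far above 0, and the other 54 have a median of 0.17.

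Levels of the strongly reduced transcripts also varied together between libraries of one group. As a description over 36 libraries, with each value taken as its deviation from the mean of its own group and time point, the median correlation between pairs was 0.79 within the run from SmedASXL_017329, 0.75 within the run from SmedASXL_018193 and 0.77 between these runs. It was 0.46 over the 666 pairs of the 37 transcripts, 0.26 among the other 54, and 0.05 among every 20th transcript with the same control level. All pairs share the same libraries and scaling. Several libraries held the lowest value of their group for many of the 91. *control(RNAi)* replicate 3 did so for 64 in intact animals and for 61 at 72 HPA, and *alx-3(RNAi)* replicate 3 for 53 at 48 HPA. The share over all transcripts was not computed. In *control(RNAi)* replicate 3 of the intact animals the 37 had a median of −0.31 against the mean of its group on the log2 scale. In SmedASXL_079289 that intact library had 4655, against 6643 and 6910 in the other 2.

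At the edges of the rule, the members nearest the control minimum of 20 were SmedASXL_007789, whose lowest control mean was 25.3, and SmedASXL_006059 with 31.9. Just below it SmedASXL_055154 had a lowest control mean of 14.9 and SmedASXL_046374 of 11.2, with no overlap at any time point and a mean log2 value 1.85 lower for SmedASXL_055154. In all, 119 transcripts lacked overlap at 5 of the 6 time points. SmedASXL_013746, the strongest of them, missed at 0.5 HPA, where *alx-3(RNAi)* replicate 2 had 280 and the lowest control library 186. SmedASXL_014234 missed in intact animals, where *alx-3(RNAi)* replicate 2 had 187 against 29.9 and 29.5 in the other 2 *alx-3(RNAi)* libraries and 91.6 to 149 in *control(RNAi)*.

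Of the IDs that start otherwise, most of which hold a gene name, 242 reached the control level at all 6 time points, and none of them met the same rule. A count of 0 is close to the share of 0.427% found above. Of the 242, 17 were higher in *alx-3(RNAi)* with no overlap at all 6, beside 3.11% of the 21294 other transcripts. The nearest was *nhr-14*, named as a nuclear hormone receptor, a family of ligand-regulated transcription factors. Its ID contains number 017328, directly before the first long run. It had 1583, 2038 and 1556 in *alx-3(RNAi)* and 2185, 2290 and 2393 in *control(RNAi)* in intact animals, and 2778, 3117 and 2951 against 3781, 3911 and 3963 at 24 HPA. The groups of *nhr-14* overlapped at 0.5 HPA alone, and its level was 75.4% to 86.0% of the control mean, a far smaller reduction than in the run beside it.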

How the data were processed

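RNA was prepared with Trizol and polyA-selected TruSeq libraries, and per the labels the authors processed the reads with Trimmomatic 0.39, Salmon 1.4.0 and DESeq2 1.30.1. The deposited signal is a normalized count per transcript and library, scaled separately for each time point. The file headers call it RPKM, but its mean over 6 libraries equals the authors' mean normalized count for every transcript within 0.01%, so it was read as a count not divided by length. Columns of fold changes and p-values of the authors' own comparisons were not used. Whole reads were not recovered, so no count model was fitted.

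The rule was applied to the values as deposited. Within each time point log2(value + 1) was compared by two-sided moderated tests of limma (version 3.58.1, run under R 4.3.3, variance trend on). Transcripts with a value of at least 10 in at least 3 libraries were tested, with Benjamini-Hochberg adjustment over all of them. The code was run on simulated data with independent noise for each transcript. That run cannot speak to transcripts that vary together, as described above. p-values cover the spread between 3 libraries only. The time points were normalized separately, so no test was made across them. Named transcripts are *alx-3*, the 12 strongest, the 5 with the highest counts, the 3 highest and 3 lowest in intact controls over 0.5 HPA, the 3 most and least variable, those at the edges of the rule, named IDs with the same pattern and neighbouring IDs. The members, lists and tests were chosen with earlier results of these data known. Alternatives were other pseudocounts, filters, control minimums and scalings, a replicate block and leaving out each library. No reference sequence or annotation was used.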

Additional observations from a re-analysis of the deposited data

How the results depend on the processing

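Leaving out each library in turn, 91 to 112 transcripts met the rule. A missing library can only loosen the demand of no overlap, but it can move a control mean across the minimum of 20. A control minimum of 10 or 50 gave 93 or 88. The rule was met by 445 transcripts with each library at the same total, by 193 with quantile normalization, and by 150 without the 6 HPA table, an alternative added after seeing the data. With the same total the median difference of the 91 was −0.89 at 0.5 HPA, −0.81 at 6 HPA, −0.76 at 24 HPA, −0.84 at 48 HPA and −0.75 at 72 HPA. With quantile normalization it was −0.65 at 72 HPA. Leaving out single libraries gave medians of −0.78 to −0.62 at 48 HPA, −0.61 to −0.51 at 72 HPA and −0.78 to −0.62 in intact animals. Of transcripts ranked on the other 5 time points, 32 to 87 were then called lower in intact animals and 39 to 83 at the other time points. Over all tested transcripts the calls lower then ran from 108 to 1260 at 0.5 HPA, 65 to 307 at 6 HPA, 346 to 913 at 24 HPA, 155 to 634 at 48 HPA, 289 to 2086 at 72 HPA and 55 to 2905 in intact animals, so this background moves with single libraries. With the same total 1241, 411, 2128, 1883, 4017 and 338 of all tested transcripts were called lower from 0.5 HPA to intact animals, against 264, 204, 925, 358, 876 and 163 as deposited, and with quantile normalization 568, 673 and 1675 at 0.5, 48 and 72 HPA. With every library at one total, 4, 12 and 8 of the 91 were highest in controls at 0.5, 24 and 48 HPA, against 2, 7 and 24 as deposited. The causes were not tested.

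The replicate numbers showed no clear pairing of the libraries. Deviations of same-numbered libraries correlated at −0.23 to 0.16, and not every library correlated best with its own number. With 3 libraries per group these correlations cannot exclude a pairing. With a replicate block 76, 62, 79, 57, 69 and 65 of the ranked transcripts were called lower from 0.5 HPA to intact animals, and over all tested transcripts 595, 310, 634 and 410 at 0.5, 6 and 48 HPA and in intact animals. *alx-3* was called lower by limma under each of the 12 alternatives run at each time point, with an adjusted p of at most 0.00171. Low counts limit the 4 transcripts whose *alx-3(RNAi)* mean falls under 20, and whether neighbouring IDs share reads was not tested.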
